A study of Mus musculus with 2 samples.

Results

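Prostaglandins are lipid mediators made from arachidonic acid, which the cyclooxygenases convert to prostaglandin H2, the common precursor that terminal synthases turn into prostaglandin E2, D2 or prostacyclin. In skin they act over short distances on receptors of neighbouring cells, where prostaglandin E2 is known for its part in inflammation, vessel tone and epithelial growth, and a dehydrogenase inactivates them. Ptgs1 and Ptgs2 encode the cyclooxygenases, Ptges, Ptgis and Hpgds the terminal synthases, Hpgd the dehydrogenase, and Ptger2, Ptger3 and Ptger4 receptors for prostaglandin E2. These 9 genes, of 27998 in the deposited count matrices, were matched by symbol, and all 9 were found. They had been chosen with their levels by cell type and library already known, so the levels below are a description of the 2 libraries and carry no test.

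Both libraries came from wild-type male C57/BL6 mice (C57BL/6J in the study's methods) with large wounds, circular, 1.8 cm across, on the dorsal skin, collected 2 days after the scab detached. WT_LW wounds were sprayed with PBS on days 0, 3 and 6. TLR9agonist_LW wounds were sprayed on the same days with ODN2395, a CpG oligodeoxynucleotide that activates Toll-like receptor 9. The study's methods also name PBS for WT_LW, whereas its legend on healing speed names a control oligodeoxynucleotide. Cells of several mice were pooled into 1 droplet library per group. The comparison asks how prostaglandin genes differ between the cells of ODN2395-treated and PBS-treated healed wounds.

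With 1 library per group there was no replicate check, and mouse, preparation and treatment cannot be told apart. Every interval below is an exact 95% interval that covers counting error only. After filters on cells and removal of predicted doublets, 10355 cells with a median of 5521 UMIs (unique molecules counted) remained in WT_LW and 11921 cells with a median of 6071 in TLR9agonist_LW. Levels are UMIs of a gene per 1000000 UMIs of all genes (CPM), summed over the cells of a library or of a cell type. The libraries stood apart: of 31 expression clusters, 13 drew over 90% of their cells from 1 library, and 47 cell barcodes occurred in both. Cells were therefore typed one by one with marker genes, none of them among the 9, which gave 15 cell types, and names such as macrophages stand for macrophage-like and so on. The defining markers of all 15 types were detected in both libraries. Schwann-like cells, in which all 9 genes were low, served as the reference for RNA free in the droplets. Summed levels of 4 keratins outside keratinocytes were higher in TLR9agonist_LW, at 297 and 1068 CPM in Schwann cells and 401 and 1371 CPM in T cells of WT_LW and TLR9agonist_LW, and the part of free RNA in the levels below was not tested.

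Over all cells, Ptgs2, Ptges and Ptger3 were at least 2-fold higher in TLR9agonist_LW and none of the 9 was 2-fold lower. Ptgs2 stood at 143 CPM in WT_LW against 358 CPM in TLR9agonist_LW, a log2 ratio of 1.32 (1.29 to 1.35). Ptges stood at 17.9 and 43.1 CPM (log2 ratio 1.27), and Ptger3 at 2.30 and 4.75 CPM (log2 ratio 1.05). Of 15448 genes with at least 50 UMIs, 3.74% were 2-fold higher and 11.6% were 2-fold lower. Since the choice of members used these levels, nothing is read from the count.

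The other cyclooxygenase went the opposite way. Ptgs1 stood at 29.3 CPM in WT_LW against 17.9 CPM in TLR9agonist_LW (log2 ratio -0.72, -0.80 to -0.63). Hpgds was also lower, at 37.0 and 26.9 CPM (log2 ratio -0.46), and Ptgis, with 71 and 67 UMIs in all, stood at 0.833 and 0.597 CPM (log2 ratio -0.48). Hpgd, Ptger2 and Ptger4 were higher by less than 2-fold, with log2 ratios of 0.22, 0.30 and 0.27. The median gene of all those counted stood at -0.39 over all cells, and between -0.53 and 0.02 within the cell types. Relative to the median gene, the log2 ratio was 1.71 for Ptgs2, 1.66 for Ptges, 1.44 for Ptger3 and -0.33 for Ptgs1, while Hpgds (-0.073) and Ptgis (-0.09) lay close to it.

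Among the reasons to look within cell types is that the mix differed. Keratinocytes made up 6.09% of cells in WT_LW and 11.1% in TLR9agonist_LW, fibroblasts 10.6% and 21.6%, and macrophages 10.1% and 6.49%. When the TLR9agonist_LW levels within types were weighted with the WT_LW mix of types, the log2 ratio of Ptgs2 was 1.59 and that of Ptgs1 was -1.38, both farther from 0 than as measured. By the same weighting, Ptges came to 0.69 and Ptger3 to 0.58, below 2-fold. WT_LW levels with the TLR9agonist_LW mix alone gave 0.65 for Ptges, 0.24 for Ptger3 and -0.09 for Ptgs2. The mix alone thus moved Ptges about as far as the levels within its cell types did, and left Ptgs2 almost in place.

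**Figure D1:**
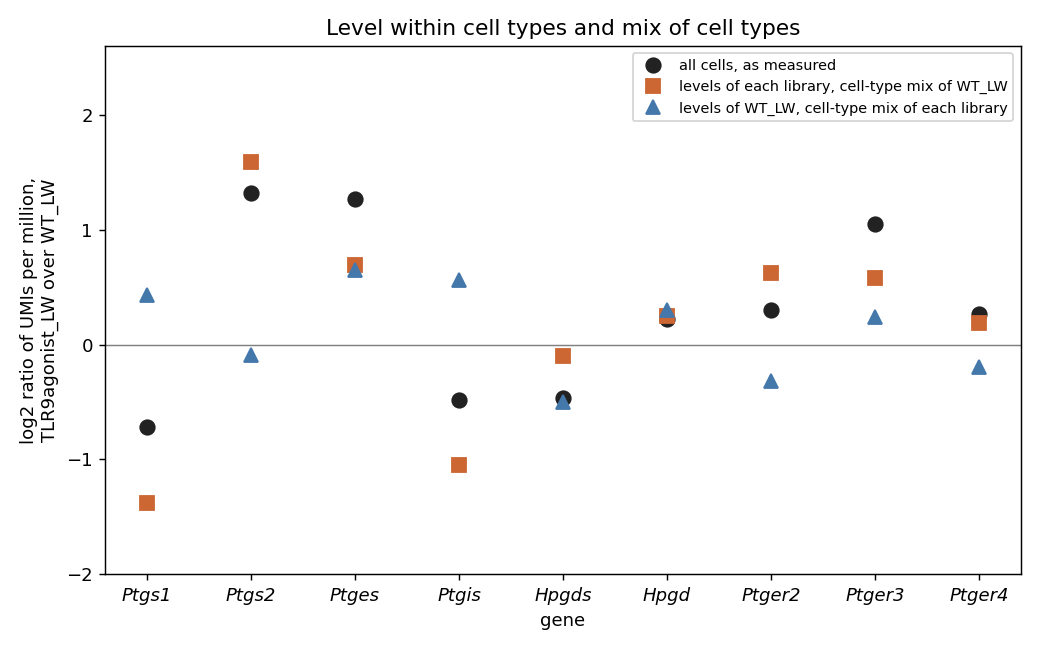
Log2 ratio of CPM between TLR9agonist_LW and WT_LW for each of the 9 genes: as measured over all cells (circles), with the WT_LW mix of cell types (squares), and from the mix alone at WT_LW levels (triangles). For Ptgs2 the square (1.59) lies above the circle (1.32), and for Ptges it lies below (0.69 against 1.27).

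The start sites of 3 genes are shown because Ptgs2 and Ptges were both higher and Ptgs1 lower over all cells. The lines give the 250 bases before each RefSeq start site in build GRCm38.p6, 5′ to 3′ on the gene's strand, with matches to 5 short motifs in capitals. Ptgs2 lies at chr1:150099781-150100030 on the + strand, Ptges at chr2:30903298-30903547 on the - strand and Ptgs1 at chr2:36230176-36230425 on the + strand.
Ptgs2: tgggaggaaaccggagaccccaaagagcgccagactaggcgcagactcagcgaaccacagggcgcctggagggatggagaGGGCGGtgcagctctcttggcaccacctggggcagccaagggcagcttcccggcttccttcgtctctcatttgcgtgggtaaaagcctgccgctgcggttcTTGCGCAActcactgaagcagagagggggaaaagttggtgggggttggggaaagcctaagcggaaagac
Ptges: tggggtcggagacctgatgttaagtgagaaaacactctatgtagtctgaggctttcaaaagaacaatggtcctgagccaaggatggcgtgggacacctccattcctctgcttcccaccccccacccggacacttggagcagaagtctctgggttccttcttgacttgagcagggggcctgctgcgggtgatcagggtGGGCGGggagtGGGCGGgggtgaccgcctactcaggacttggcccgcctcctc
Ptgs1: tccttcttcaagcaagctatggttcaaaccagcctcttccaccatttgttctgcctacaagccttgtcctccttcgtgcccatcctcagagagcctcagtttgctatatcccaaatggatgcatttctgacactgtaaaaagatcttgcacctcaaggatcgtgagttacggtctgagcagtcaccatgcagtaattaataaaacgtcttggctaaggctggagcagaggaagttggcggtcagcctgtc

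The capitals mark a GC box (GGGCGG, first base 81 of the window) and a C/EBP motif (TTNNGCAA, first base 182) in Ptgs2, and GC boxes at bases 198 and 209 in Ptges. The search covered both strands of these bases and the 50 after the start, and also looked for an E-box (CACGTG), a CRE half-site (TGACG) and a TATA motif (TATAAA). The E-box and the CRE half-site each matched once in Ptgs2, in the bases after the start where they overlap each other, and Ptgs1 had no match to any of the 5. Of 32851 RefSeq promoters of the same length, 35.7% held the GC box, 20.8% the CRE half-site, 13.6% the TATA motif, 10.8% the C/EBP motif and 7.15% the E-box. The matches are letters in a window and were not tied to any measurement here. A promoter was at hand for 8 of the 9 genes, Ptgis being the other.

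Ptgs2, the inducible cyclooxygenase, was measured with 12208 UMIs in WT_LW and 40159 in TLR9agonist_LW. In GRCm38 it spans chr1:150100031-150108227 on the + strand, with no overlapping gene in the annotation. It was 2-fold higher in TLR9agonist_LW in 13 of 15 cell types, fibroblasts fell just short of that, and neutrophils alone went the other way. The 13 include Schwann cells, the free-RNA reference. Levels in WT_LW ran from 9.74 CPM in endothelial cells to 1306 CPM in neutrophils, and in TLR9agonist_LW from 30.6 CPM in Schwann cells to 2176 CPM in monocytes.

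Monocytes had the largest ratio. Ptgs2 stood at 293 CPM in 195 WT_LW monocytes and 2176 CPM in 143 TLR9agonist_LW monocytes, a log2 ratio of 2.89 (2.75 to 3.04), where 3.27% of genes were 2-fold higher. In cells thinned to 1500 UMIs each, the share of monocytes with a Ptgs2 UMI was 22.5% and 60.3%, against 1.60% and 4.25% of Schwann cells, whose median depths were 7242 and 6394 UMIs. The gate, however, held different cells in the libraries: 149 of the WT_LW monocytes fell in a cluster led by Lyz2 and C1q genes, and 126 of the TLR9agonist_LW monocytes in a cluster led by Mmp12, Clec4e and Spp1. Without the Mmp12-led cluster the monocyte log2 ratio was 0.44.

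Macrophages held 32.5% of all Ptgs2 UMIs in WT_LW and 13.5% in TLR9agonist_LW. Ptgs2 stood at 402 CPM in WT_LW macrophages and 921 CPM in TLR9agonist_LW macrophages (log2 ratio 1.20, 3.29% of genes 2-fold higher). The share of macrophages with a UMI was nearly equal without thinning, 43.4% and 43.8%, while the UMIs per macrophage with any were 8.75 and 16.0. Thinned to 1500 UMIs, the shares were 24.4% and 29.3%.

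The macrophage difference lay in 1 cluster. The Mmp12-led cluster held 9.46% of macrophage-gated cells in WT_LW and 23.5% in TLR9agonist_LW, and within it Ptgs2 stood at 1096 and 2399 CPM. Of all macrophage-gated cells, 81.1% in WT_LW lay in the cluster led by Lyz2 and C1q genes, at 333 CPM, and 57.5% in TLR9agonist_LW in a cluster led by Ccl8, Ccl12 and C1q genes, at 213 CPM. Without the Mmp12-led cluster, Ptgs2 was lower in TLR9agonist_LW macrophages, with a log2 ratio of -0.56. C1q encodes the complement subunits that mark resident-type macrophages, and Mmp12 an elastase of activated macrophages. In the smaller Mmp12-high macrophage gate, almost all of it in that same cluster, Ptgs2 stood at 456 and 1498 CPM (log2 ratio 1.72, 3.97% of genes 2-fold higher).

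**Figure D2:**
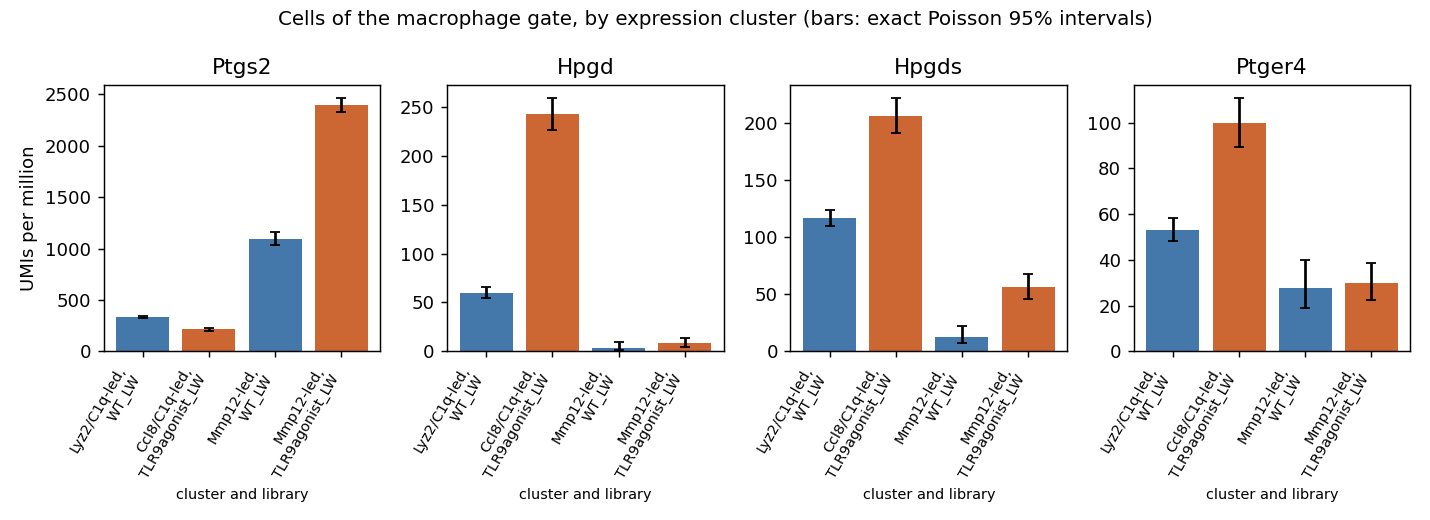
CPM of Ptgs2, Hpgd, Hpgds and Ptger4 in cells of the macrophage gate, split by expression cluster and library (bars from 0, error bars exact Poisson 95% intervals). Ptgs2 was highest in the Mmp12-led cluster (1096 and 2399 CPM), and Hpgd in the Ccl8- and C1q-led cluster of TLR9agonist_LW (242 CPM).

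Antigen-presenting cells had high Ptgs2 in both libraries, and higher in TLR9agonist_LW. Langerhans cells, the epidermal antigen-presenting cells, stood at 325 and 1494 CPM (log2 ratio 2.20, 2.10 to 2.30, 4.44% of genes 2-fold higher), and the share of thinned cells with a UMI was 18.7% and 48.0%. Of the 242 and 183 cells of this gate, 148 and 98 had a UMI of Cd207, the langerin gene that defines them. Among those the levels were 277 and 1339 CPM, and among the rest 409 and 1709 CPM. Dendritic cells stood at 197 and 1067 CPM (log2 ratio 2.44, 3.44% of genes 2-fold higher). Unlike the monocyte ratio, the dendritic (2.26) and Langerhans (2.03) ratios stayed above 2-fold without the Mmp12-led cluster. Migratory dendritic cells stood at 263 and 625 CPM (log2 ratio 1.25, 2.08% of genes 2-fold higher), and this ratio was 0.89 with types taken from clusters.

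Keratinocytes, the epithelial cells of the epidermis, stood at 61.1 and 214 CPM (log2 ratio 1.81, 1.69 to 1.92, 2.31% of genes 2-fold higher). Basal keratinocytes, which hold the dividing cells, carried most of it, at 77.8 and 460 CPM (log2 ratio 2.56), with a UMI in 8.51% and 33.8% of thinned cells. Suprabasal keratinocytes, which differentiate, stood at 54.4 and 117 CPM (log2 ratio 1.10). The basal cells thus differed from the WT_LW level by about 5.92-fold and the suprabasal cells by 2.14-fold, while the depth of keratinocytes was also higher in TLR9agonist_LW (median 11132 and 22842 UMIs).

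Fibroblasts, the matrix-forming cells of the dermis, held 26.0% and 30.8% of the Ptgs2 UMIs. Their level was 191 CPM in WT_LW and 367 CPM in TLR9agonist_LW (log2 ratio 0.94), just below 2-fold, where 3.47% of genes were 2-fold higher. Deep fibroblasts stood at 179 and 472 CPM (log2 ratio 1.40), and upper fibroblasts at 209 and 318 CPM (log2 ratio 0.60). WT_LW fibroblasts lay mostly in clusters led by Igfbp6 and Clec3b (194 CPM) and by Tnn and Col7a1 (195 CPM). Those of TLR9agonist_LW lay mostly in clusters led by Igfbp2 and Crabp1 (170 CPM) and by Ptx3, Saa3 and Mmp3 (591 CPM). The last of these had 912 TLR9agonist_LW cells and fewer than 40 WT_LW cells after doublet removal. The other 3 lay between 170 and 195 CPM, each in the library it mostly came from. Their few cells from the opposite library gave lower Ptgs2 where a level was computed. For the Igfbp2- and Crabp1-led cluster this was 45.1 CPM (42 UMIs of 65 WT_LW cells). For the Igfbp6- and Clec3b-led cluster it was 129 CPM (116 UMIs of 51 TLR9agonist_LW cells). Within a cluster the libraries thus differed in both directions.

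Vascular cells had low Ptgs2 in WT_LW. Endothelial cells stood at 9.74 and 66.4 CPM (log2 ratio 2.77, 3.62% of genes 2-fold higher) and pericytes, the contractile cells around small vessels, at 24.6 and 158 CPM (log2 ratio 2.68, 3.39% of genes 2-fold higher). Lymphatic endothelial cells, 72 and 56 cells, stood at 48.5 and 123 CPM (log2 ratio 1.34, 2.21% of genes 2-fold higher), and 0.47 with equal weight per cell. WT_LW endothelial cells did not exceed the Schwann reference of 10.6 CPM. In TLR9agonist_LW they did exceed its 30.6 CPM (log2 ratio of Schwann cells 1.52, 2.39% of genes 2-fold higher). Few thinned vascular cells had a Ptgs2 UMI in WT_LW and TLR9agonist_LW. These were 12 of 584 and 22 of 391 endothelial cells, and 27 of 577 and 27 of 447 pericytes. Among thinned Schwann cells they were 11 of 688 and 19 of 447. In TLR9agonist_LW the vascular shares lay close to the Schwann share, so the ratios are not read as shifts across most vascular cells.

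Among lymphoid cells, γδT17-like cells had the highest Ptgs2 level, at 115 and 301 CPM (log2 ratio 1.39). All T cells stood at 27.1 and 142 CPM (log2 ratio 2.39, 4.46% of genes 2-fold higher), and regulatory T cells at 16.5 and 85.6 CPM (log2 ratio 2.37). The T cell gate held 468 γδT17-like cells in WT_LW and 1265 in TLR9agonist_LW. CD4 helper T cells (10.2 and 32.6 CPM) and CD8 T cells (14.6 and 37.4 CPM) lay near the Schwann reference in both libraries. No difference is read from these levels, and the part of free RNA in them was not tested. Mast cells, at 22.8 and 72.0 CPM from 14 and 64 UMIs, had a log2 ratio of 1.66 where 12.4% of genes were 2-fold higher.

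Only neutrophils had a lower level in TLR9agonist_LW. They had the highest WT_LW level of all types, 1306 CPM in 47 cells, and 905 CPM in 208 cells of TLR9agonist_LW (log2 ratio -0.53, -0.80 to -0.25), where 9.9% of genes were 2-fold higher, 12.2% were 2-fold lower and 31.0% had a lower ratio than Ptgs2. The share of thinned neutrophils with a UMI was 68.3% and 49.7%. Their median depth, 2108 and 2344 UMIs, was among the lowest of the 15 types.

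**Figure D3:**
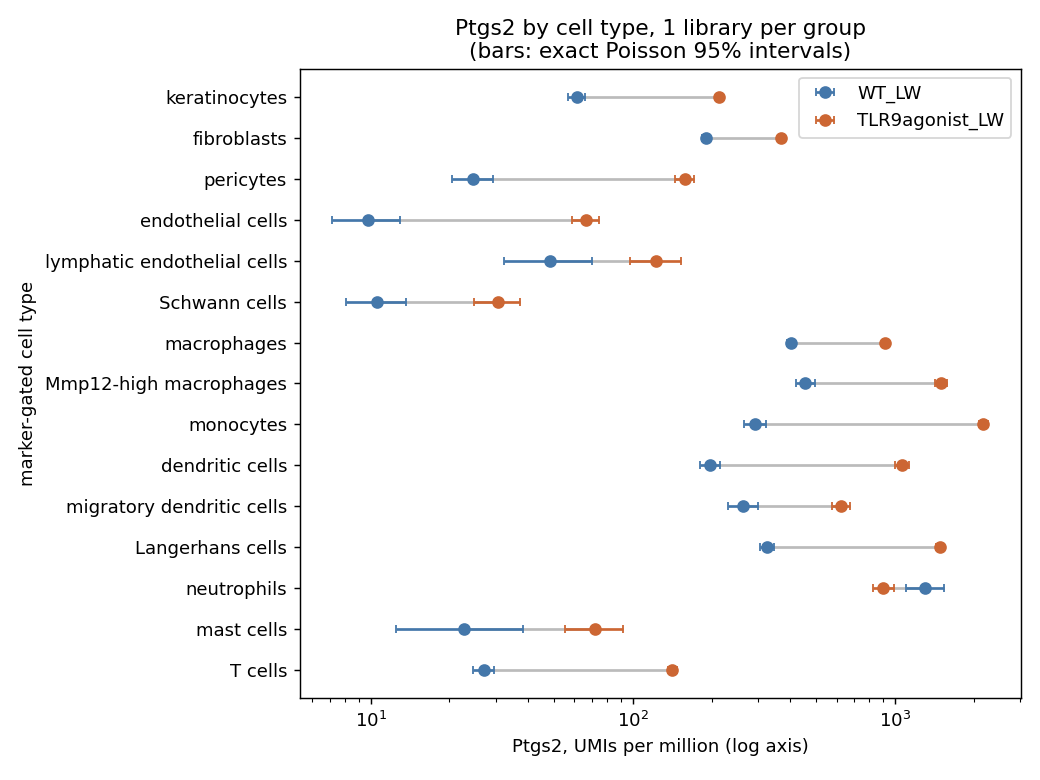
Ptgs2 level in CPM (log axis) in each of the 15 cell types, in WT_LW (blue) and TLR9agonist_LW (orange), with exact Poisson 95% intervals. Every type but neutrophils (1306 and 905 CPM) was higher in TLR9agonist_LW, and monocytes were farthest apart (293 and 2176 CPM).

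Ptgs2 is also an immediate early gene that cells induce when tissue is dissociated, so 12 immediate early and stress genes, a list added after the data were seen, were set beside it. Hspa1a and Hspa1b, which encode heat shock proteins, were higher in TLR9agonist_LW over all cells, with log2 ratios of 1.34 and 1.70, and were 2-fold higher in 11 and 12 of the 15 cell types. The other 10 genes lay between -0.86 (Fosb) and 0.21 (Egr1) over all cells, and their median log2 ratio over all cell types was -0.48. In fibroblasts Junb (1.20) was also 2-fold higher. In deep fibroblasts, whose Ptgs2 ratio was 1.40, 6 of the 12 genes were, where 4.0% of all genes were. In the 5 cell types with the largest Ptgs2 ratios, taken in that order, Hspa1a stood at a log2 ratio of 0.35 in monocytes, 2.69 in endothelial cells, 1.82 in pericytes, 0.56 in dendritic cells and 1.77 in T cells. Across the 15 types Hspa1a ran from 0.14 in Mmp12-high macrophages to that endothelial value. In monocytes, dendritic cells and T cells, 6, 3 and 3 of the 12 genes were 2-fold lower, beside 11.5%, 9.15% and 10.1% of all genes. In endothelial cells and pericytes 0 of the 12 were 2-fold lower. There 3 and 2 were 2-fold higher, beside 3.62% and 3.39% of all genes. In monocytes, dendritic cells and T cells 0, 1 and 2 were 2-fold higher, beside 3.27%, 3.44% and 4.46%. Langerhans cells had 7 lower, where 16.6% of genes were, and 0 higher. Schwann cells had 0 lower and 4 higher, where 2.39% of genes were higher. Fos and Egr1 were each 2-fold lower in 7 of the 15 types and higher in 0. The part of dissociation in the Ptgs2 levels was not tested.

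Ptgs1, the constitutive cyclooxygenase (chr2:36230426-36252272, + strand, with the antisense gene Gm43621), was lower in TLR9agonist_LW by 2-fold or more in 3 of the 6 cell types with at least 50 UMIs and higher in none. Langerhans cells showed the largest difference, at 206 CPM in WT_LW against 17.9 CPM in TLR9agonist_LW (log2 ratio -3.52), where 16.6% of genes were 2-fold lower. In those with a Cd207 UMI it was 297 and 28.4 CPM (log2 ratio -3.38, -3.92 to -2.89). The share of thinned Langerhans cells with a Ptgs1 UMI was 21.7% and 2.23%, against 0% and 0.224% of Schwann cells. In the same cells Ptgs2 was higher, so the order of the cyclooxygenase ratios was opposite there.

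Fibroblasts stood at 24.3 and 4.13 CPM of Ptgs1 (log2 ratio -2.56, 7.58% of genes 2-fold lower). Their WT_LW signal lay in the Igfbp6- and Clec3b-led cluster, at 38.8 CPM, against 3.78 CPM in the Tnn- and Col7a1-led one, and both large TLR9agonist_LW clusters were low (2.24 and 5.08 CPM). Endothelial cells stood at 56.8 and 23.5 CPM (log2 ratio -1.27, 15.8% of genes 2-fold lower), which came to -0.82 relative to the median gene. Keratinocytes, which held 38.8% of Ptgs1 UMIs in WT_LW and 78.3% in TLR9agonist_LW, stood at 91.6 and 52.5 CPM (log2 ratio -0.80). Suprabasal keratinocytes stood at 126 and 60.5 CPM (log2 ratio -1.06, 21.4% of genes 2-fold lower), while the basal interval included 0 (log2 ratio 0.15, -0.17 to 0.48). Relative to the median gene, Ptgs1 came to -0.27 in all keratinocytes and -0.52 in suprabasal ones.

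Ptges encodes the inducible synthase of prostaglandin E2 (chr2:30889471-30929863, - strand, overlapping Gm13400 on the same strand, so reads of the overlap cannot be told apart). Keratinocytes held 40.1% and 58.3% of its UMIs and fibroblasts 36.3% and 27.2%. Within keratinocytes it stood at 57.7 CPM in WT_LW against 94.3 CPM in TLR9agonist_LW (log2 ratio 0.71), with 36.5 and 69.4 CPM in basal and 71.6 and 105 CPM in suprabasal cells. Unlike Ptgs2, its level was thus higher in suprabasal than in basal keratinocytes in both libraries. Of thinned keratinocytes, 7.96% and 14.7% had a UMI, against 0.436% and 1.12% of Schwann cells.

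Fibroblasts differed little in Ptges, at 33.3 and 39.1 CPM (log2 ratio 0.23). Pericytes stood at 24.2 and 52.9 CPM (log2 ratio 1.13), but few thinned ones had a Ptges UMI. In WT_LW these were 0 of 27 with a Ptgs2 UMI and 24 of 550 without, and in TLR9agonist_LW 0 of 27 and 26 of 420. The 4 keratins stood at 279 and 903 CPM in pericytes, and the part of free RNA was not tested. Macrophages stood at 5.16 and 12.2 CPM (log2 ratio 1.24), and Mmp12-high macrophages, the myeloid cells with the highest level, at 51.5 and 27.6 CPM (log2 ratio -0.90). Within the macrophage gate, the Lyz2- and C1q-led cluster of WT_LW had 3.03 CPM and the Ccl8- and C1q-led cluster of TLR9agonist_LW 5.80 CPM. The Mmp12-led cluster had 23.2 and 26.2 CPM, and held 9.46% of the gate in WT_LW and 23.5% in TLR9agonist_LW. The T cell values of 2.44 and 7.96 CPM lay near those of Schwann cells, 1.62 and 5.73 CPM, and no difference is read from them.

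Ptgis, the prostacyclin synthase (chr2:167191805-167240604, - strand), was nearly confined to fibroblasts, which held 90.1% and 94.0% of its UMIs. Their level was 3.85 CPM in WT_LW and 1.87 CPM in TLR9agonist_LW, from 64 and 63 UMIs (log2 ratio -1.04). Deep fibroblasts had 55 and 56 of those UMIs, at 6.67 and 4.65 CPM. Relative to the median gene the fibroblast ratio was -0.75.

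Hpgds makes prostaglandin D2 in blood-derived cells (chr6:65117293-65144908, - strand, with the antisense gene Gm17147). Langerhans cells had the highest level in WT_LW, 419 CPM, and 154 CPM in TLR9agonist_LW (log2 ratio -1.44). A UMI was found in 35.7% and 24.0% of thinned Langerhans cells. With Ptgs1 this made 2 synthesis genes that were lower in TLR9agonist_LW Langerhans cells while Ptgs2 was higher. In WT_LW, 36.6% of the 82 thinned Langerhans cells with an Hpgds UMI also had a Ptgs1 UMI, against 13.5% of the 148 without.

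Mast cells, a classical source of prostaglandin D2, stood at 155 and 222 CPM of Hpgds (log2 ratio 0.52), the highest of all types in TLR9agonist_LW. Macrophages stood at 106 and 151 CPM (log2 ratio 0.51), with 117 CPM in the Lyz2- and C1q-led cluster of WT_LW, 206 CPM in the Ccl8- and C1q-led cluster of TLR9agonist_LW, and 56.1 CPM in the Mmp12-led cluster of TLR9agonist_LW (14 UMIs in that of WT_LW). Monocytes stood at 12.2 and 35.9 CPM from 19 and 41 UMIs (log2 ratio 1.56, and -0.069 without the Mmp12-led cluster). Suprabasal keratinocytes had 40.5 and 51.3 CPM and basal ones 2.68 and 8.33 CPM. All keratinocytes stood at 26.2 and 38.8 CPM, and they held 8.77% of Hpgds UMIs in WT_LW and 38.4% in TLR9agonist_LW, beside 12.4% and 26.6% of all UMIs.

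Hpgd, the dehydrogenase that inactivates prostaglandin E2 (chr8:56294585-56321043, + strand, overlapping Gm45540 on the same strand), had its largest share in fibroblasts (66.2% and 58.8% of UMIs) and macrophages (19.9% and 22.9%). Fibroblasts stood at 104 CPM in WT_LW against 69.7 CPM in TLR9agonist_LW (log2 ratio -0.57), with 158 and 132 CPM in deep and 54.0 and 32.3 CPM in upper fibroblasts. Macrophages stood at 52.4 and 155 CPM (log2 ratio 1.56), and the share of thinned macrophages with a UMI was 6.46% and 17.7%, against 0.291% and 0.224% of Schwann cells.

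The macrophage pattern of Hpgd was the reverse of that of Ptgs2. It stood at 60.2 CPM in the Lyz2- and C1q-led cluster of WT_LW and 242 CPM in the Ccl8- and C1q-led cluster of TLR9agonist_LW. The Mmp12-led macrophages of TLR9agonist_LW had 8.39 CPM. Without them the macrophage log2 ratio was 1.95. Of thinned TLR9agonist_LW macrophages with a Ptgs2 UMI, 6.44% also had an Hpgd UMI, against 22.4% of those without, and in WT_LW these shares were 2.48% and 7.74%.

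In other cells Hpgd differed in both directions. Keratinocytes stood at 6.14 and 17.4 CPM (log2 ratio 1.51), basal ones at 6.44 and 29.2 CPM (log2 ratio 2.18), and the keratinocyte ratio was 0.63 with equal weight per cell. Dendritic cells stood at 21.5 and 3.96 CPM, from 55 and 4 UMIs (log2 ratio -2.44, 9.15% of genes 2-fold lower). Langerhans cells stood at 32.5 and 4.72 CPM, from 97 and 10 UMIs (log2 ratio -2.78).

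Ptger2 encodes the EP2 receptor (chr14:44988195-45003820, + strand, with 2 antisense genes), which couples to cyclic AMP. T cells held 70.7% and 72.1% of its UMIs, at 18.1 CPM in WT_LW against 30.6 CPM in TLR9agonist_LW (log2 ratio 0.76). CD4 helper T cells had 30.2 and 50.9 CPM, regulatory T cells 22.5 and 33.1 CPM, and γδT17-like cells 8.66 and 18.5 CPM (log2 ratio 1.09). CD8 T cells had 4.87 and 8.40 CPM, from 12 and 11 UMIs. The first 3 subsets were higher in TLR9agonist_LW, and Schwann cells had 1 and 2 UMIs in all.

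Ptger3 encodes the EP3 receptor (chr3:157566892-157645888, + strand), and 52.6% of its UMIs in WT_LW and 89.7% in TLR9agonist_LW came from fibroblasts. They stood at 6.20 and 14.2 CPM (log2 ratio 1.20), with 6.67 and 17.3 CPM in deep and 5.82 and 11.7 CPM in upper fibroblasts. The Igfbp2- and Crabp1-led cluster went the other way, at 27.9 CPM from 26 UMIs of 65 WT_LW cells and 12.0 CPM in TLR9agonist_LW. The clusters led by Igfbp6 and by Tnn, which held most WT_LW fibroblasts, had 4.60 and 3.40 CPM there.

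Ptger4 encodes the EP4 receptor (chr15:5206661-5244187, - strand, with the antisense genes Ttc33 and Gm15937) and was the most widely detected receptor, with at least 50 UMIs in 9 of the 15 cell types. Keratinocytes showed the largest difference, at 12.7 CPM in WT_LW against 49.6 CPM in TLR9agonist_LW (log2 ratio 1.97). Suprabasal keratinocytes stood at 7.36 and 47.1 CPM (log2 ratio 2.68) and basal ones at 22.3 and 57.1 CPM (log2 ratio 1.36). A UMI was found in 1.06% and 7.64% of thinned keratinocytes, against 0.872% and 0.671% of Schwann cells. In WT_LW the keratinocyte share was thus close to that of Schwann cells. Among thinned TLR9agonist_LW keratinocytes, 16.0% of those with a Ptgs2 UMI and 5.62% of those without had a Ptger4 UMI.

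Migratory dendritic cells, which carry antigen to lymph nodes, had the highest Ptger4 level in both libraries, at 227 and 173 CPM (log2 ratio -0.40), dendritic cells at 106 and 92.1 CPM and Langerhans cells at 53.9 and 57.6 CPM. Monocytes stood at 56.6 and 20.2 CPM (log2 ratio -1.49, 11.5% of genes 2-fold lower), and -0.60 without the Mmp12-led cluster. Macrophages stood at 49.2 and 73.4 CPM, fibroblasts at 37.2 and 53.4 CPM and T cells at 47.5 and 33.5 CPM. Like Hpgd, Ptger4 was highest among macrophages in the Ccl8- and C1q-led cluster of TLR9agonist_LW (99.8 CPM, against 53.2 CPM in the Lyz2- and C1q-led cluster of WT_LW), and low in the Mmp12-led cluster of both libraries (27.8 and 29.9 CPM).

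**Figure D4:**
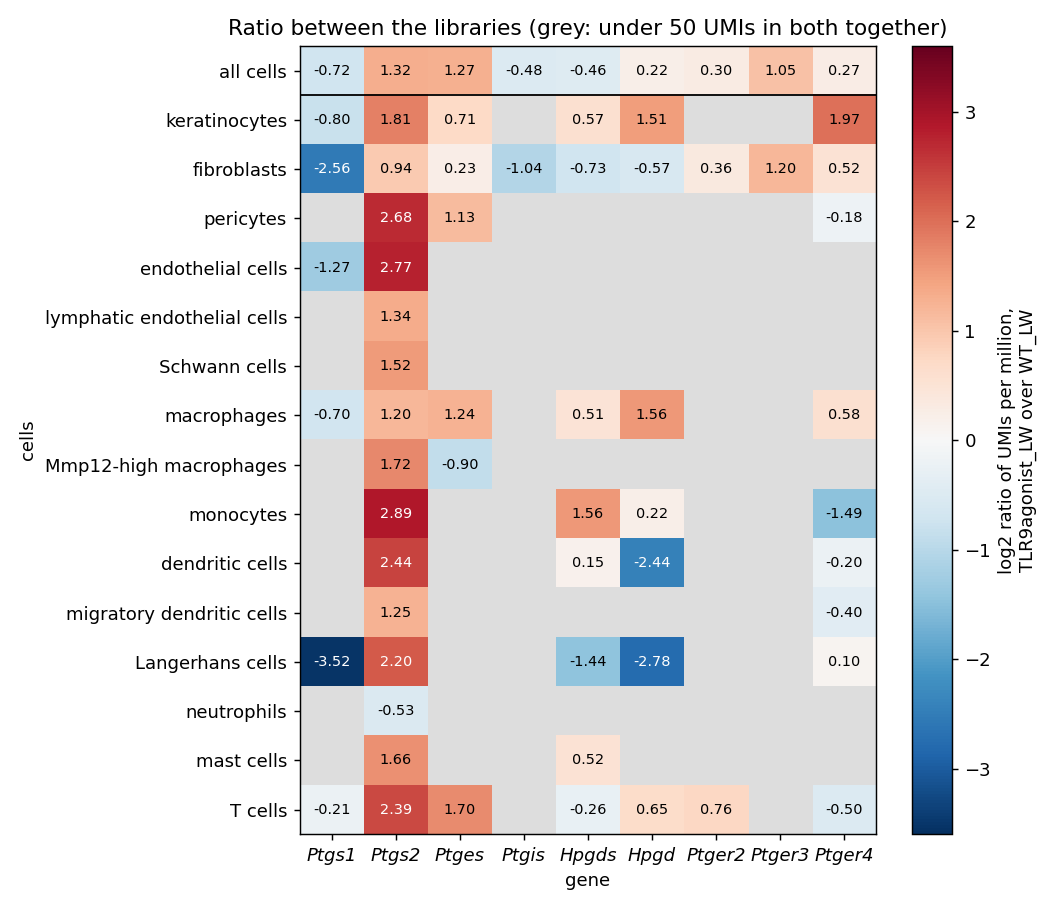
Log2 ratio of CPM between TLR9agonist_LW and WT_LW for each gene (columns) over all cells and in each cell type (rows), with grey where both libraries together had under 50 UMIs. The Ptgs2 column is above 0 in every type but neutrophils (-0.53), whereas Hpgd runs from -2.78 in Langerhans cells to 1.56 in macrophages.

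Of 135 pairs of a gene and a cell type, 55 had at least 50 UMIs. Of these, 21 were 2-fold higher in TLR9agonist_LW and 8 were 2-fold lower, and 13 of the 21 were of Ptgs2. Over all 108910 pairs of a gene and 1 of these cell types with at least 50 UMIs, 3.68% were 2-fold higher and 10.2% were 2-fold lower, and since the choice of members used these levels nothing is read from their counts. Ptgs1 was 2-fold higher in 0 of its 6 types with at least 50 UMIs, so none of these could have both cyclooxygenases 2-fold higher. The sources of the transcripts also differed between the libraries. The Langerhans shares of Hpgds and Ptgs1 were 39.7% and 24.7% in WT_LW and 10.8% and 1.90% in TLR9agonist_LW.

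**Figure D5:**
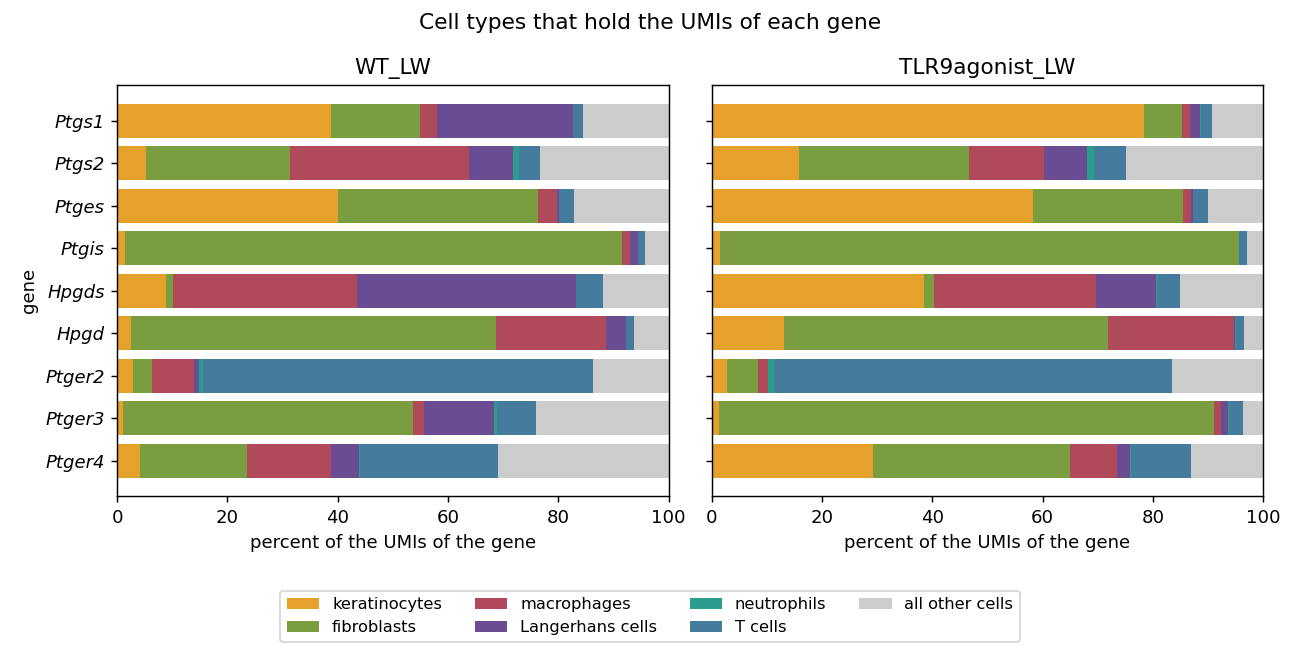
Share of the UMIs of each gene (percent) found in keratinocytes, fibroblasts, macrophages, Langerhans cells, neutrophils, T cells and all other cells, in WT_LW and TLR9agonist_LW. Fibroblasts held nearly all Ptgis (90.1% and 94.0%) and T cells most Ptger2 (70.7% and 72.1%), while the keratinocyte share of Ptgs1 was 38.8% and 78.3%.

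Other genes of prostaglandin and leukotriene metabolism were counted from a list of 49, of which 41 had at least 50 UMIs over all cells. Of these, 4 were 2-fold higher and 8 were 2-fold lower in TLR9agonist_LW, with a median log2 ratio of -0.32 against -0.39 for all genes, of which 3.74% and 11.6% were past 2-fold in these directions. The thromboxane receptor gene Tbxa2r stood at 8.91 and 22.5 CPM in fibroblasts (log2 ratio 1.34), and Tbxas1, the thromboxane synthase, at 45.0 and 26.6 CPM in macrophages (log2 ratio -0.76) and -1.74 over all cells. Abcc4, a transporter that exports prostaglandins, stood at 58.2 and 16.5 CPM in endothelial cells (log2 ratio -1.82).

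Alox5, Alox5ap, Ltc4s and Cysltr2 were the leukotriene genes of the list past 2-fold over all cells, and Lta4h, Ltb4r1, Ltb4r2 and Cysltr1 were not. Alox5, the 5-lipoxygenase, stood at 82.3 CPM in WT_LW against 9.44 CPM in TLR9agonist_LW Langerhans cells (log2 ratio -3.12), and Ltc4s, the leukotriene C4 synthase, at 280 and 76.0 CPM in the same cells (log2 ratio -1.88). Alox5ap, the partner protein of Alox5, stood at 148 and 69.8 CPM over all cells (log2 ratio -1.08), but its macrophage ratio was only -0.39. Cysltr2, a leukotriene receptor gene, had a log2 ratio of -1.15 over all cells.

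Keratinocyte genes of the list differed in both directions. Alox12e stood at 45.1 and 4.89 CPM in keratinocytes (log2 ratio -3.21), and the phospholipase genes Pla2g2f (75.0 and 33.1 CPM) and Pla2g4f (34.1 and 15.7 CPM) were also 2-fold lower there, where 21.1% of genes were and the median gene stood at -0.53. Pla2g4e (1.46), Alox12b (1.31) and Aloxe3 (1.78), the latter lipoxygenases of the epidermal barrier, were 2-fold higher over all cells but not within keratinocytes (log2 ratios 0.40, 0.29 and 0.92). Ephx2, an epoxide hydrolase gene, stood at 6.61 and 3.15 CPM in keratinocytes.

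Across the 15 cell types in both libraries, 30 points that share libraries and depth, the genes whose log2(CPM + 1) followed Ptgs2 most closely were Il1rn (r = 0.86), Slc7a11 (r = 0.85) and Ifrd1 (r = 0.84). Those for Ptges were Sdc1 (r = 0.83), Ereg (r = 0.81) and Gstm2 (r = 0.79), and those for Ptgs1 were Tspan8 (r = 0.78), Nlrp10 (r = 0.67) and Cd3eap (r = 0.65). Hpgds was closest to I830077J02Rik (r = 0.79), Sh2d1b1 (r = 0.77) and Alox5 (r = 0.77), and Hpgd to Serp1 (r = 0.69), Abca9 (r = 0.68) and Ccl12 (r = 0.65). For Ptgis, above 0 in only 11 points, they were Wnt2 (r = 0.94), Syndig1 (r = 0.92) and Chodl (r = 0.91). The receptors were closest to Itgal (r = 0.86), Slc28a2 (r = 0.84) and Cd101 (r = 0.82) for Ptger2, to Il1rl1 (r = 0.72), Slc4a4 (r = 0.70) and Tmem132e (r = 0.67) for Ptger3, and to Lsp1 (r = 0.79), Rassf5 (r = 0.77) and Tnni2 (r = 0.76) for Ptger4. These are descriptions of likeness with no test.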

How the data were processed

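Single-cell RNA was sequenced from healed large wounds, with 1 droplet library per group made from cells of several pooled mice. The deposited values are whole-number UMI counts for each gene in each cell, which the authors obtained from Cell Ranger 4.0.0 and left without scaling. The submitters' notes also name fastp, Seurat and build mm9. Deposited totals were 99374045 UMIs in 12800 barcodes and 132339022 UMIs in 13751. Cells with at least 500 UMIs, 300 genes and at most 15% mitochondrial UMIs were kept (11443 and 13206), and the 10% with the highest Scrublet doublet scores in each library were removed, ties at the limit kept (1088 and 1285), with scanpy 1.11.5 in Python 3.11.15. Clusters are Leiden clusters (leidenalg 0.10.2) without library correction, made without the 9 genes. A cell was typed from at least 3 markers of a type; 12.2% and 12.5% of cells stayed untyped, and types with 40 cells per library were described. Summed counts gave CPM with exact Poisson intervals, ratios exact conditional binomial intervals (scipy 1.17.1) and shares exact Clopper-Pearson intervals. For shares of cells, each cell was thinned to 1500 UMIs and shallower cells were left out. The calculations were tested on simulated data. Promoter sequences are from RefSeq (GRCm38.p6) and gene positions from a GRCm38 annotation, matched by symbol and gene ID, since the files give no coordinates.

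The genes named are the 9 members, genes of the wider list with 200 UMIs and a 2-fold difference over all cells or in the type holding most of their UMIs, and for each member the 3 genes of at least 200 UMIs most like it by Pearson correlation. Members and lists were chosen with earlier results of these data known. The marker gate was set after 4 settings had been tried with clusters and member levels in view. Alternatives were other cell filters, doublets kept, a stricter gate, types from clusters, equal weight per cell, thinned cells and scaling to the median gene; 4 more were added after seeing the data. Without replicates no p-value was computed.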

Additional observations from a re-analysis of the deposited data

Results flagged for a closer look

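Hpgd, Hpgds and Ptger4 stood past 2-fold in opposite directions in different cell types, and these differences between types were not tested. Hpgd had a log2 ratio of TLR9agonist_LW over WT_LW of 1.51 in keratinocytes and 1.56 in macrophages, but -2.44 in dendritic cells and -2.78 in Langerhans cells. Hpgds stood at 1.56 in monocytes and -1.44 in Langerhans cells. Ptger4 stood at 1.97 in keratinocytes and -1.49 in monocytes. Both monocyte ratios were past 2-fold only with the Mmp12-led cluster included, which held 126 of the 143 TLR9agonist_LW monocytes.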

How the results depend on the processing

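No paired analysis was possible because each group has 1 library.

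None of the 9 ratios over all cells changed direction. Equal weight per cell gave -0.82 for Ptgs1, 1.47 for Ptgs2, 0.60 for Hpgd, -0.14 for Hpgds, 0.78 for Ptger2, 0.71 for Ptger3 and 0.17 for Ptger4. Scaled to the median gene they were -0.33 for Ptgs1, 1.71 for Ptgs2, 1.66 for Ptges, 0.61 for Hpgd, -0.073 for Hpgds, 0.69 for Ptger2, 1.44 for Ptger3 and 0.66 for Ptger4. With the WT_LW mix of cell types, an alternative chosen after seeing the data, they were -1.38 for Ptgs1, 1.59 for Ptgs2, 0.69 for Ptges, -1.05 for Ptgis, -0.10 for Hpgds, 0.62 for Ptger2, 0.58 for Ptger3 and 0.19 for Ptger4. The stricter cell filter gave 0.19 for Ptger4.

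Leaving out the Mmp12-led cluster, also chosen after seeing the data, turned Ptgs2 in macrophages to -0.56 and Hpgds in monocytes to -0.069, and 23 of 28 ratios past 2-fold stayed past it. Ptgs2 was then 2-fold higher in 10 of the 14 cell types with a value, and in 8 of 12 with types from clusters. Of 29 ratios past 2-fold within types, 24 stayed past it with equal weight per cell, 27 relative to the median gene, 28 with 1 more marker, and all 29 with doublets kept, with the stricter cell filter or without the 2 shallow clusters. It was 20 of 23 with types from clusters and 22 of 28 with thinned cells. In thinned cells 51 of 53 ratios kept their sign. The largest shift of any ratio was 2.77 in log2, for Ptger4 in pericytes, which had 51 and 33 UMIs before thinning. Among smaller shifts, Ptgs2 in lymphatic endothelial cells came to 0.30, and Hpgd in dendritic cells, from 4 UMIs in TLR9agonist_LW, to -0.99. The causes were not tested. Of the 27 most like genes, 11 were kept with Spearman correlation. Depth limited Ptgis, Ptger2 and Ptger3, which passed 50 UMIs in only 1 or 2 cell types.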

Other observations

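A small cluster led by Mcpt8 and Hdc, genes of basophils, was left unnamed. Its Ptgs2 level in WT_LW was 2973 CPM (119 UMIs in 11 cells), above that of every cluster with at least 40 WT_LW cells. Levels of the other clusters with fewer WT_LW cells were not computed. After doublet removal 1 TLR9agonist_LW cell, with 3 UMIs, remained in it. Before that removal the Mcpt8- and Hdc-led cluster held 18 WT_LW and 22 TLR9agonist_LW cells, so the cell numbers left do not compare the libraries.

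Keratinocytes with a Ptgs2 UMI in TLR9agonist_LW more often had a Ptges UMI when thinned to 1500 UMIs, at 18.1% of 243 cells against 13.9% of the 1014 without, and among basal keratinocytes at 13.5% of 126 against 4.86% of 247. In WT_LW the shares went the other way, from few cells. Only 33 thinned keratinocytes had a Ptgs2 UMI, and 1 of them (3.03%) had a Ptges UMI, against 8.27% of the 532 without. Among basal keratinocytes it was 0 of 16 against 12 of 172. Cells of 1 library are not replicates, so these shares describe that library.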
